A study of Rattus norvegicus with 13 samples.

Results

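The genes described here are 9 alpha and beta tubulin isotypes measured in the left ventricle of the rat heart, the chamber that pumps blood into the aorta: Tuba1a, Tuba1b, Tuba4a, Tuba8, Tubb2a, Tubb2b, Tubb3, Tubb5 and Tubb6. They were found by gene name on an Agilent whole-transcriptome array, where 10 of 30367 probes carry these names, out of 26115 gene names in all. Tuba1b has 2 probes and each other gene has 1. The genes were selected on measured values, namely their log2 levels in the groups compared here with Tubb2a's difference known, so the differences below are given as a description and counts of their calls, where printed, test nothing. Levels are the log2 spot signal relative to its array's 75th percentile, so a level above 0 is brighter than that percentile.

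The study set male rats labelled as overexpressing ADBR3, which the series title spells ADRB3, the beta-3 adrenergic receptor that binds catecholamines, against wild-type (WT) rats. All rats were 45 weeks old, and total RNA of the left ventricle was labelled with the single dye Cy3. The comparison holds 5 ADBR3 overexpressing rats on 7 arrays and 4 WT rats on 6 arrays. In each group, hearts 1 and 2 are given in the labels as 2 labelings of 1 rat's RNA, and ADBR3 overexpressing heart 4 and WT heart 5 are replicate hybridizations. The labels do not tie those hybridizations to another array by heart number, so they stand beside the 9 rats and not among them. Rats carry the number of their heart: 1, 3, 5, 6 and 7 for ADBR3 overexpressing and 1, 3, 4 and 6 for WT. How the receptor was introduced, its promoter, the strain and the number of lines are not given in the sources used here. Spreads are between rats.

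An alpha and a beta tubulin bind each other as a dimer, and these dimers stack end to end into microtubules, hollow filaments that carry cargo, position organelles and, in heart muscle cells, resist deformation as the cell contracts. Mammals carry several genes for each kind, and the isotypes differ mainly in their acidic tails at the C-terminus, where modifying enzymes and associated proteins act. In the heart, the amount of tubulin and the modification of its tails have been studied in hypertrophy and heart failure, where denser microtubules stiffen the muscle cell.

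Each probe on the array is a sequence of 60 bases near the 3' end of its transcript. The probes are shown because the tubulin genes resemble each other closely, and a level can be read as that of an isotype only as far as its probe tells them apart. Between any pair of the 10 probes the longest shared run was 9 bases. Probes were compared only with each other, so whether a probe matches the transcript of another isotype was not tested. The 5 probes that start nearest the 5' end of their transcripts can be read in a sense frame with no stop before the last codon and are printed whole, and capitals mark a run of 9 bases shared with another printed probe.
Tuba1b, A_64_P144514: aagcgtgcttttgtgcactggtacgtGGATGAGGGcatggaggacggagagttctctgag
Tuba4a, A_64_P122238: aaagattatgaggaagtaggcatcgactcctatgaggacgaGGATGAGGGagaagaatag
Tuba8, A_44_P622992: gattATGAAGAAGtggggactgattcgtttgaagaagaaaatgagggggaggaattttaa
Tubb5, A_44_P172814: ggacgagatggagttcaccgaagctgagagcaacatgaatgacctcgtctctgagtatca
Tubb6, A_44_P1022458: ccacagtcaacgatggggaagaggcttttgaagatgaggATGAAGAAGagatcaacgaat

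The other 5 probes start farther towards the 3' end, and bases 1 to 30 of each are given. Where the coding sequence ends relative to the probes was not worked out.
Tuba1a, A_42_P622436: gtggcaatgtgtgctttcatacagttactg
Tuba1b, A_64_P037963: ctccatgtgtacctcttaagttttccatga
Tubb2a, A_64_P103321: cactgttgatgtaatagtgtgaacctcctt
Tubb2b, A_64_P019037: acttgagatctttctgaactcctgttgtaa
Tubb3, A_64_P031506: tgggttgtgtttatatttggaggggggtct

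Per the file headers the array design is placed on build rn4. There the Tubb2a probe lies at chr17:37142966-37143025 and the Tubb2b probe at chr17:37090908-37090967, both on the plus strand. The Tuba1a probe lies at chr7:137729455-137729514 and the first Tuba1b probe at chr7:137706854-137706913, both on the minus strand. The remaining probes are at chr9:74496576-74496635 for Tuba4a, chr4_random:1618566-1618625 for Tuba8, chr19:53751646-53751705 for Tubb3, chr20:3063856-3063915 for Tubb5 and chr18:63928978-63929037 for Tubb6. The second Tuba1b probe, A_64_P144514, is placed away from its gene at chr19:56546427-56546486, and the array's annotation lists a Tuba1a transcript for it as well, so its signal may combine both genes. All 9 genes matched the RefSeq gene table of assembly GRCr8 by accession, under the same symbols. In its gene order Tuba1b and Tuba1a are neighbours, and Tubb2b, Tubb2al1 and Tubb2a follow one another. That table also holds 14 pseudogenes named after Tuba1b, 5 after Tuba1a and 1 after Tuba4a. Whether these copies or Tubb2al1 reach the probes was not tested.

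The arrays were alike in brightness, with 75th percentiles of 760.4 to 908.7 and 55.2% to 67.8% of spots well above background, and no spot was saturated. The 12 cardiomyocyte markers were all measured above background, with a mean level per rat of 6.43 to 6.50 in ADBR3 overexpressing and 6.29 to 6.50 in WT hearts. The probe for rat Adrb3 was well above background on 1 of 7 ADBR3 overexpressing and 0 of 6 WT arrays. The introduced sequence is not stated, so this probe checks nothing about the labels. After leaving out probes not well above background in at least 4 of 9 rats, 17587 probes remained, among them all 10 tubulin probes. At an adjusted p of 0.05 (limma, Benjamini-Hochberg over these probes), 1 probe was called higher in ADBR3 overexpressing rats, 0.00569% of those tested, and 0 lower.

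Tubb2a, a beta tubulin of class II found widely and abundant in nerve, was the tubulin whose groups lay apart. Its level was 2.41, 2.46, 2.52, 2.53 and 2.35 in ADBR3 overexpressing rats 1, 3, 5, 6 and 7, against 2.25, 2.21, 2.21 and 2.21 in WT rats 1, 3, 4 and 6. The lowest ADBR3 overexpressing rat was above the highest WT rat, so the groups did not overlap. Means were 2.45 ± 0.0730 (SD, n = 5) and 2.22 ± 0.0223 (SD, n = 4), a difference of 0.23 with a standard error of 0.0506, or 1.18-fold. The replicate hybridizations, which did not enter those means, read 2.34 for ADBR3 overexpressing heart 4 and 2.21 for WT heart 5, and heart 4 was also above every WT rat. This is the value by which the gene came to be chosen, and nothing is read from its separation. Groups did not overlap in 3.44% of all probes tested, 1.23% with ADBR3 overexpressing rats higher and 2.21% with them lower.

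**Figure D1:**
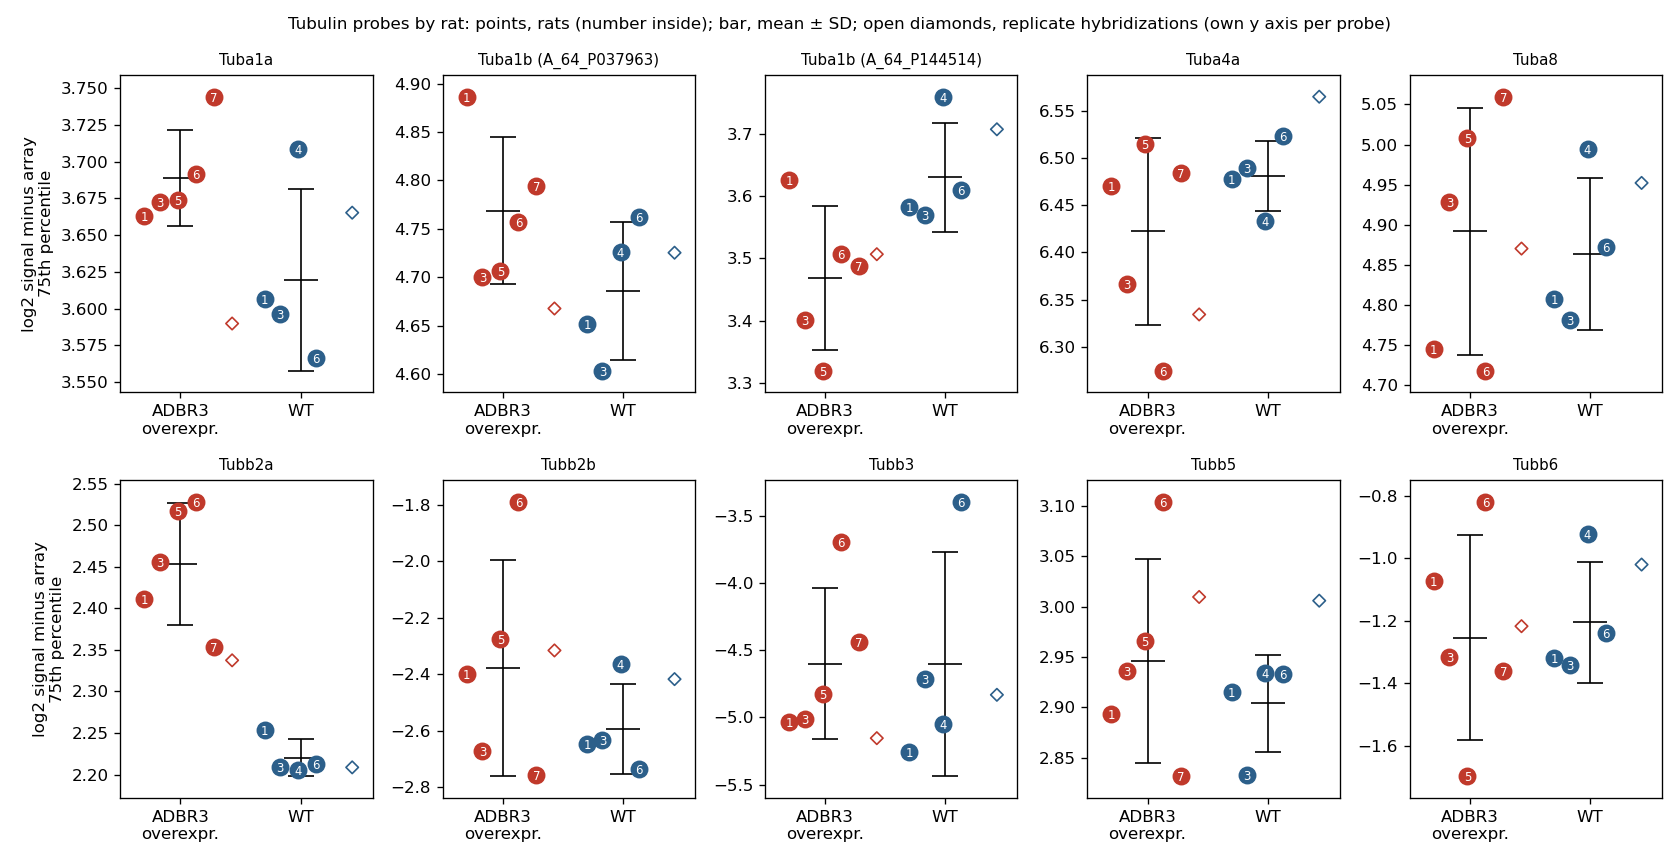
Level of each tubulin probe (y, log2 signal relative to the array's 75th percentile, own axis per panel) in ADBR3 overexpressing rats (left, red) and WT rats (right, blue), with rat numbers in the points, the mean ± SD as bars and replicate hybridizations as open diamonds. In the Tubb2a panel the ADBR3 overexpressing rats lie at 2.35 to 2.53, all above the WT rats at 2.21 to 2.25, and in the other 9 panels the groups overlap.

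Repeat measurements of Tubb2a were close. The 2 labelings of 1 rat differed by -0.04 in ADBR3 overexpressing rat 1 and by -0.01 in WT rat 1 (heart 1 minus heart 2). Over all probes tested, dim ones included, the SD of that difference was 0.245 and 0.287. Among other bright tubulin probes, that of Tuba8 differed by 0.01 and 0.07 and that of Tubb5 by 0.12 and -0.04. The 2 spots of the Tubb2a probe within an array were farther apart than its labelings, with a median SD of 0.138 over the arrays. Within slides the difference was 0.15 on slide 1 (1 array against 1), 0.16 on slide 3 (1 against 3) and 0.25 on slide 4, where the replicate hybridizations are needed to fill the groups (3 against 1). Within the scan days it was 0.21 on day 1 and 0.25 on day 2. A fit with slide as a block gave 0.16, smaller than the 0.23 without it by more than the SD between rats. Every ADBR3 overexpressing array, the lowest at 2.34, read above every WT array, the highest at 2.26. The sign within a batch therefore could not turn, and several batches share rats.

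Tubb2b, the neighbouring class II gene, known for its role in the migration of neurons, had a similar mean difference with a wider spread. Levels were -2.40, -2.67, -2.28, -1.79 and -2.76 in ADBR3 overexpressing rats 1, 3, 5, 6 and 7, against -2.65, -2.63, -2.36 and -2.73 in WT rats 1, 3, 4 and 6. ADBR3 overexpressing rat 6 stood above every other rat, followed by rat 5. ADBR3 overexpressing rats 1 and 3 lay within the WT range, and rat 7 lay below it. The difference of 0.22 had a standard error of 0.185 (means -2.38 ± 0.383, SD, n = 5, and -2.60 ± 0.161, SD, n = 4). Without ADBR3 overexpressing rat 6 the difference was 0.07. It was -0.39 within slide 1, which set ADBR3 overexpressing rat 7 against WT rat 4, and 0.21 and 0.29 within slides 3 and 4. With slide as a block it was -0.09. The part of the slide and that of the single rats on it cannot be told apart.

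Tubb5, the class I beta tubulin made in most cells, differed little beside its spread between rats. Levels were 2.89, 2.94, 2.97, 3.10 and 2.83 in ADBR3 overexpressing rats, against 2.92, 2.83, 2.93 and 2.93 in WT rats, in the same rat order. The means were 2.95 ± 0.101 (SD, n = 5) and 2.90 ± 0.0478 (SD, n = 4), a difference of 0.04 with a standard error of 0.0617. ADBR3 overexpressing rats 5 and 6 lay above every WT rat. Rat 3 was level with the highest WT rat, rat 7 was level with the lowest and rat 1 lay within the WT range. The replicate hybridizations read 3.01 for both ADBR3 overexpressing heart 4 and WT heart 5. WT heart 5 was thus above ADBR3 overexpressing rats 3 and 5. Without ADBR3 overexpressing rat 6, the highest, the difference was 0.0028.

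Tubb6, the class V beta tubulin, which in mouse is induced in regenerating and dystrophic skeletal muscle, varied more between rats than between groups. Levels were -1.07, -1.32, -1.70, -0.82 and -1.36 in ADBR3 overexpressing rats, against -1.32, -1.34, -0.92 and -1.24 in WT rats. ADBR3 overexpressing rats held both the highest and the lowest value, and the WT rats lay between them. The difference was -0.05 with a standard error of 0.169 (means -1.25 ± 0.329, SD, n = 5, and -1.21 ± 0.194, SD, n = 4). Its sign changed with the rats used: it was 0.05 without WT rat 4, 0.06 without ADBR3 overexpressing rat 5 and -0.16 without rat 6 of that group.

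Tubb3, the class III isotype known as a marker of neurons, was dim and poorly measured. It was well above background on 4 of 7 ADBR3 overexpressing and 4 of 6 WT arrays, against every array for each of the other 9 probes. Levels were -5.04, -5.01, -4.82, -3.69 and -4.44 in ADBR3 overexpressing rats, against -5.25, -4.71, -5.05 and -3.40 in WT rats. In each group the rat numbered 6 stood above the others. In WT rat 6 the 2 spots of the probe read -4.86 and -1.95 and neither was marked as an outlier, while in ADBR3 overexpressing rat 6 they read -3.82 and -3.57. The difference of 0.0036 (standard error 0.408) became 0.40 without WT rat 6 and -0.22 without ADBR3 overexpressing rat 6. No level between groups can be set from this probe.

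Of the alpha tubulins, Tuba1a, the main alpha isotype of developing neurons, is read by 10 spots on each array. Levels were 3.66, 3.67, 3.67, 3.69 and 3.74 in ADBR3 overexpressing rats, against 3.61, 3.60, 3.71 and 3.57 in WT rats. The ADBR3 overexpressing rats lay above 3 of the 4 WT rats, and WT rat 4 lay above all but rat 7. The difference was 0.07 with a standard error of 0.0470 (means 3.69 ± 0.0325, SD, n = 5, and 3.62 ± 0.0617, SD, n = 4). The replicate hybridizations ran the other way, at 3.59 for ADBR3 overexpressing heart 4 and 3.67 for WT heart 5, and the difference was -0.02 within scan day 1 against 0.10 within day 2.

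The 2 probes of Tuba1b, the widely expressed alpha tubulin next to Tuba1a, had differences of opposite sign. The first, A_64_P037963, read 4.89, 4.70, 4.71, 4.76 and 4.79 in ADBR3 overexpressing rats, against 4.65, 4.60, 4.73 and 4.76 in WT rats, a difference of 0.08 (standard error 0.0578). The second, A_64_P144514, read 3.63, 3.40, 3.32, 3.51 and 3.49 in ADBR3 overexpressing rats, against 3.58, 3.57, 3.76 and 3.61 in WT rats, a difference of -0.16 (standard error 0.0722). At the second probe 4 of the 5 ADBR3 overexpressing rats were below every WT rat, and rat 1 was above 3 of them. Within slides 1, 3 and 4 the first probe differed by 0.07, 0.11 and -0.015 and the second by -0.27, 0.07 and -0.26. Over the pooled groups each sign held under every alternative run, while within single slides each turned once. The 2 probes that carry the name Tuba1b thus had no single direction on this array. The second is the one placed on chr19, away from the gene, that also lists a Tuba1a transcript. Whether its sign describes Tuba1b is therefore not settled.

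Tuba4a, an alpha isotype abundant in heart and skeletal muscle whose gene is unusual in already lacking the C-terminal tyrosine codon of its relatives, had levels of 6.47, 6.37, 6.51, 6.28 and 6.48 in ADBR3 overexpressing rats. In WT rats it had 6.48, 6.49, 6.43 and 6.52. The WT rats lay close together, and ADBR3 overexpressing rats 3 and 6 lay below them. The difference was -0.06 with a standard error of 0.0599 (means 6.42 ± 0.0993, SD, n = 5, and 6.48 ± 0.0371, SD, n = 4), and -0.02 without ADBR3 overexpressing rat 6. It was 0.05, -0.05 and -0.19 within slides 1, 3 and 4, and 0.01 and -0.08 within scan days 1 and 2.

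Tuba8, an alpha isotype enriched in striated muscle and testis, read 4.74, 4.93, 5.01, 4.72 and 5.06 in ADBR3 overexpressing rats, against 4.81, 4.78, 4.99 and 4.87 in WT rats. The WT range lay wholly inside that of the ADBR3 overexpressing rats. The difference of 0.03 (standard error 0.0865) was below 0 under 7 of 24 settings, among them the authors' deposited table (-0.02) and both normexp background corrections (-0.01 and -0.02).

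**Figure D2:**
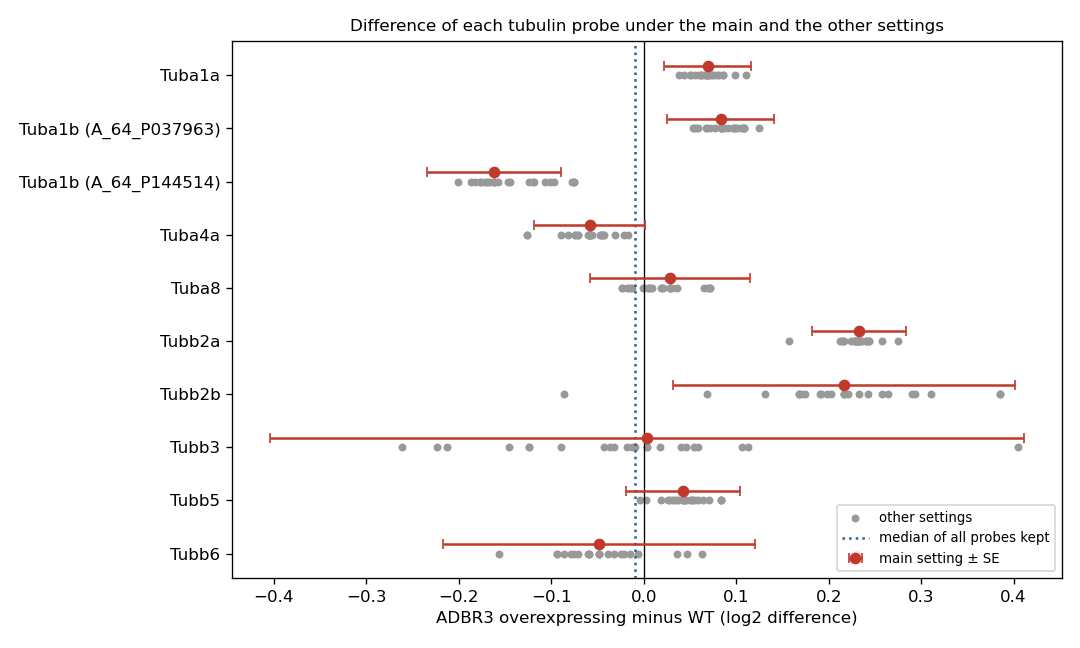
Difference of ADBR3 overexpressing minus WT (x, log2) for each tubulin probe, with the main setting and its standard error in red and every other setting in grey. A dotted line marks the median of all probes tested, -0.00939. Tubb2a lies between 0.16 and 0.27 under the settings run, the 2 Tuba1b probes lie on opposite sides of 0, and Tubb3 runs from -0.26 to 0.40.

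Across the 10 probes, 7 differences were above 0 and 3 below, where 46.5% of all probes tested were above 0. With each array scaled to its median in place of its 75th percentile, that share was 60.7%. The median tubulin difference was 0.0351, beside -0.00939 over all probes tested. Since this contrast chose the genes, their calls are a description from which nothing is read: in the limma fit over all probes 0 of the 10 were past the adjusted threshold and 1, Tubb2a, had an unadjusted p under 0.05, where 9.2% of all probes did, 3.12% higher and 6.08% lower in ADBR3 overexpressing rats. In bulk tissue, fewer cells that make a transcript and less transcript per cell cannot be told apart. Of the 4 alpha isotypes 2 had 1 sign at all their probes and under every setting run on the pooled groups, Tuba1a above 0 and Tuba4a below it. Of the 5 beta isotypes this held for Tubb2a. Within single batches the signs of Tuba1a and Tuba4a turned. That of Tubb2a could not, since its ADBR3 overexpressing arrays all read above its WT arrays.

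The rats also differed among themselves within their groups. After the mean of its own group was taken from each rat, the 9 probes measured above background in all 9 rats gave 36 pairs, of which 18 correlated above 0, with a median Pearson r of -0.0026. For some pairs Pearson r was high and the rank correlation lower: Tubb2b with Tubb5 (r = 0.823, Spearman rho = 0.667), Tubb2a with Tubb5 (r = 0.818, rho = 0.617), and Tubb2a with Tubb2b (r = 0.685, rho = 0.4). In each of these genes ADBR3 overexpressing rat 6 was the highest of its group and rat 7 the lowest. The 2 Tuba1b probes, opposite in group difference, followed each other from rat to rat (r = 0.787, rho = 0.817), and the second followed Tubb6 (r = 0.805, rho = 0.8). Tuba4a ran against Tubb6 (r = -0.744, rho = -0.567) and Tubb5 (r = -0.686, rho = -0.483). These pairs, picked from the ends of the 36, are descriptions over 9 rats. Their values share the array, its scaling and the RNA sample, and single rats weigh heavily in them. ADBR3 overexpressing rat 6 was the highest of its group in 4 of the 9 probes and the lowest in 2, WT rat 4 was the highest of its group in 6, and WT rat 3 the lowest in 5.

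**Figure D3:**
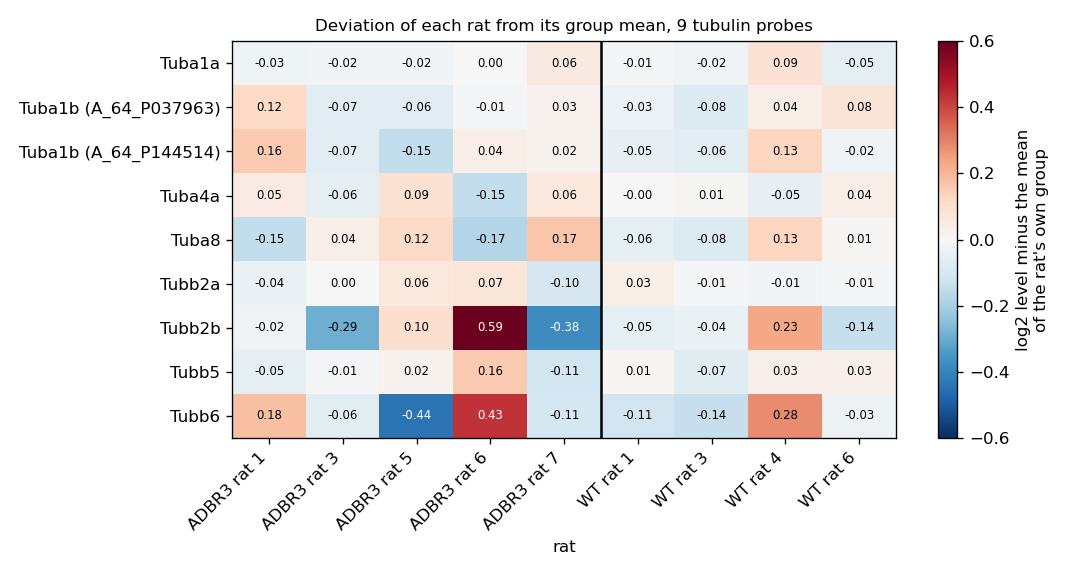
Level of each rat minus the mean of its own group (colour and number, log2) for the 9 tubulin probes above background in all rats, with ADBR3 overexpressing rats left of the line and WT rats right of it. ADBR3 overexpressing rat 6 is at 0.59 in Tubb2b and 0.43 in Tubb6 and at -0.15 in Tuba4a.

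For each tubulin, the gene symbol whose values followed it most closely over the 9 rats was looked up among about 10386 probes above background in all rats, again after centring on the group means. Tubb2a was followed most closely by Mdn1, a ribosome assembly factor (r = 0.96, rho = 0.833), Tubb2b by Cpxm1 (r = 0.969, rho = 0.883), Tubb5 by Safb2 (r = 0.968, rho = 0.933) and Tubb6 by Itpr1, a calcium release channel (r = 0.954, rho = 0.9). Tuba1a was followed by the histone chaperone gene Asf1a (r = 0.959, rho = 0.8), Tuba1b by Pdia4, a chaperone gene of the endoplasmic reticulum (r = 0.957, rho = 0.967), Tuba4a by Entpd5 (r = 0.973, rho = 0.95) and Tuba8 by Rbfa (r = 0.977, rho = 0.95). Each is the best of all probes searched over 9 rats and describes these rats alone. Tubb3 was not above background in every rat and has no such partner.

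The other tubulin genes, 11 of 13 listed genes on the array and 7 of them tested with 8 probes, had 0 probes past the adjusted threshold and 0 with an unadjusted p under 0.05 (limma). Of the 8, 6 were above 0 and 2 below, with a median of 0.0738. Tubb4b, a broadly expressed beta tubulin, averaged 6.02 ± 0.132 (SD, n = 5) in ADBR3 overexpressing rats and 5.85 ± 0.104 (SD, n = 4) in WT rats, a difference of 0.17 (adjusted p = 0.547, limma). Tuba1c, the third of the alpha genes near Tuba1a and Tuba1b in mammals, averaged 3.45 ± 0.0954 and 3.56 ± 0.0410 in the same order, a difference of -0.11 (limma adjusted p = 0.59), with -0.05 at its other probe, A_44_P544023. Tubg2, a gamma tubulin gene of the complexes that seed microtubules, differed by 0.36 (limma adjusted p = 0.635), well above background on 7 of 7 ADBR3 overexpressing and 3 of 6 WT arrays, so its WT level is poorly measured.

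Among genes that fold tubulin, 0 of 24 probes of 19 genes passed in either direction, with 13 above 0 and 11 below and a median of 0.00578 (limma, unadjusted p under 0.05 in 1 higher and 1 lower). Tcp1, a subunit of the CCT chaperonin through which tubulins fold, averaged 3.67 ± 0.0520 (SD, n = 5) and 3.55 ± 0.0470 (SD, n = 4) (adjusted p = 0.503, limma), while another Tcp1 probe, A_64_P035058, differed by -5e-04. Cct6a, another CCT subunit, differed by -0.19 (limma adjusted p = 0.539), and by -0.03 at its brighter probe, A_64_P021181. Pdcl3, a phosducin-like protein that assists CCT, differed by 0.10 (limma adjusted p = 0.558) at 1 probe and by -0.065 at the other, A_64_P141799. Of the tubulin modifying enzymes, 0 of 14 probes of 13 genes passed, with 11 above 0 and 3 below and a median of 0.0423 (1 higher and 1 lower at an unadjusted p under 0.05). Ccdc23, the array's name for Svbp, the small partner of the vasohibins that cut the C-terminal tyrosine from alpha tubulin, averaged 1.25 ± 0.0173 (SD, n = 5) and 1.14 ± 0.0357 (SD, n = 4). Its groups did not overlap, with a difference of 0.11 (limma adjusted p = 0.491), against 0.04 at its other probe, A_64_P060134. Agbl5, a deglutamylase gene, differed by -0.32 (limma adjusted p = 0.543), and the vasohibin gene Vash2 by 0.42 (limma adjusted p = 0.576), well above background on 4 of 7 ADBR3 overexpressing and 4 of 6 WT arrays.

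Of the microtubule-associated and end-binding proteins, 0 of 21 probes of 17 genes passed, with 10 above 0 and 11 below and a median of -0.0062 (3 higher and 0 lower at an unadjusted p under 0.05). Map4, the main microtubule-associated protein of heart muscle, averaged 4.25 ± 0.110 (SD, n = 5) in ADBR3 overexpressing and 4.08 ± 0.0512 (SD, n = 4) in WT rats, a difference of 0.17 (limma adjusted p = 0.494), with no overlap of the groups. Its other probe, A_64_P118950, differed by 0.16. Map1a, better known from neurons, differed by 0.19 (limma adjusted p = 0.529), and Tppp, which bundles microtubules, by -0.30 (limma adjusted p = 0.547), well above background on 6 of 7 ADBR3 overexpressing and 4 of 6 WT arrays. Of the destabilising and severing proteins, 0 of 8 probes of 7 genes passed and 0 had an unadjusted p under 0.05, with 4 above 0 and 4 below. Katnal1, of the katanin family of severing proteins, differed by 0.11 (limma adjusted p = 0.717), and Stmn1, the gene of stathmin, which binds free tubulin dimers, by -0.06 (limma adjusted p = 0.851).

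Of the motors, 0 of 28 probes of 20 genes passed, with 18 above 0 and 10 below and a median of 0.0563 (2 higher and 0 lower at an unadjusted p under 0.05). Dync1li2, a light intermediate chain of cytoplasmic dynein, which walks towards microtubule minus ends, averaged 3.60 ± 0.0212 (SD, n = 5) and 3.41 ± 0.0439 (SD, n = 4), a difference of 0.18 (limma adjusted p = 0.313), and its groups did not overlap. Its dimmer probe, A_44_P491771, differed by 0.08. Kif3b, a subunit of heterotrimeric kinesin-2, differed by 0.51 at a probe near background (limma adjusted p = 0.313), read on 5 of 7 ADBR3 overexpressing and 3 of 6 WT arrays, and by 0.025 at the brighter probe A_44_P529939. Dync1li1 differed by 0.25 (limma adjusted p = 0.548) with 7 of 7 and 4 of 6 arrays above background. The groups did not overlap in 3 of the 103 probes of these lists, those of Ccdc23, Map4 and Dync1li2, all higher in ADBR3 overexpressing rats. Of all probes tested 3.44% did not overlap, 1.23% with ADBR3 overexpressing rats higher and 2.21% with them lower.

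**Figure D4:**
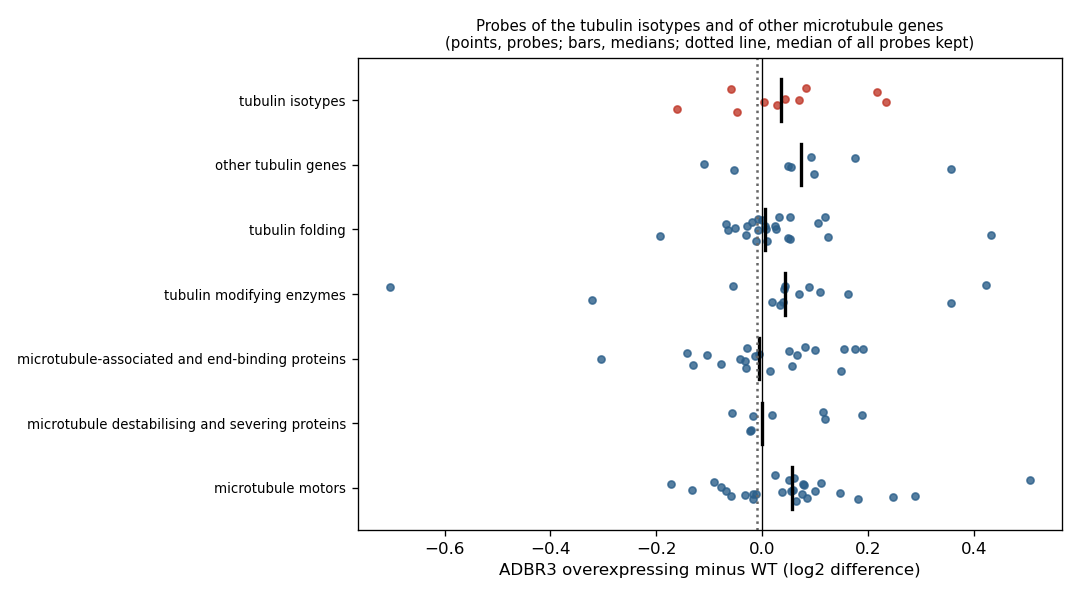
Difference of ADBR3 overexpressing minus WT (x, log2) for every probe tested of the tubulin isotypes (red) and of 6 lists of other microtubule genes (blue), with list medians as bars and the median of all probes tested as a dotted line. List medians run from -0.0062 to 0.0738, and the tubulin isotypes have a median of 0.0351.

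Markers of other cells of the ventricle were read beside the tubulins, and in each list given here the ranges of the groups overlapped. The mean level of 10 fibroblast markers was 0.70 to 1.02 in ADBR3 overexpressing rats and 0.65 to 0.88 in WT rats, with all 12 probes above 0 in the difference, and rats 1 and 6 of the ADBR3 overexpressing group were highest at 1.02 and 1.00. The 10 endothelial markers were at 0.68 to 0.86 in ADBR3 overexpressing rats and 0.83 to 0.91 in WT rats, with 10 of 11 probes below 0. For Tubb2a the highest rats were ADBR3 overexpressing rats 6 and 5. Rat 6 had a fibroblast mean of 1.00 and an endothelial mean of 0.83, and rat 5 had 0.70 and 0.68. Smooth muscle and pericyte markers (8 of 10 tested) were at -0.75 to -0.45 and -0.63 to -0.50, and macrophage and lymphocyte markers (8 of 12) at -1.54 to -1.12 and -1.40 to -0.98, in the same order of groups. The part of cell makeup in the tubulin values was not tested.

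Nerve and Schwann cell markers bear on Tubb3 and Tubb2b, which neurons express strongly. Of 12 such markers 9 were tested, at a mean of -3.20 to -2.46 in ADBR3 overexpressing rats and -2.88 to -2.51 in WT rats. The neuronal genes Nefl, Nefm and Snap25 were above background in 0 of 9 rats, while Th, Dbh, Uchl1, Prph and Gap43, also genes of nerve cells, were in 9 of 9. Markers of dividing cells, 7 of 10 tested, were at -3.34 to -2.97 and -3.26 to -3.03. Cdk1, Aurka, Plk1, 1 of the Mki67 probes and 1 of the Bub1 probes were above background in 9 of 9 rats. The markers not tested were Ccnb2 and Aurkb, above background in 0 of 9, and Top2a, whose probes were in 0 and 2. Among the cardiomyocyte markers the groups did not overlap at 2 of 15 probes, A_44_P187080 of Atp2a2 and that of Mybpc3. Both were higher in ADBR3 overexpressing rats, by 0.22 and 0.18, while the brighter Atp2a2 probe, A_64_P096184, differed by -0.01. Over all probes tested the groups did not overlap in 3.44%, 1.23% with ADBR3 overexpressing rats higher. No marker probe of these cell types passed the adjusted threshold (0 with limma). At an unadjusted p under 0.05 were 2 of 15 cardiomyocyte probes and 1 of 12 fibroblast probes, higher in ADBR3 overexpressing rats. Lower were 2 of 11 macrophage and lymphocyte probes and 1 of 12 nerve probes, that of Gap43. The endothelial, smooth muscle and dividing cell lists had 0. Over all probes tested the share was 9.2%, 3.12% higher and 6.08% lower.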

How the data were processed

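Left ventricle RNA of ADBR3 overexpressing and WT rats was measured on 13 single-dye Agilent arrays. Per the file headers, the deposited intensity of each spot comes from Agilent Feature Extraction 10.7.1.1 (design 028279, build rn4), and its processed signal is background-subtracted, with no scaling across arrays recorded. The authors also deposited natural log values for 20000 probes, whose scaling is not stated in the sources at hand. Their log base was taken from their match to each array's scanner values (slopes 0.986 to 1.063, correlations 0.9988 to 0.9999, column medians 5.695 to 5.73), and they served as an alternative, turned to log2.

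For the 58717 non-control spots, the log2 processed signal was set relative to its array's 75th percentile. Spots were averaged per probe, and outlier-marked ones were dropped where others remained. Detection in a rat required, on each of its arrays, that 0.5 or more of a probe's spots be well above background. Repeat labelings were averaged to 1 value per rat. Replicate hybridizations stayed out of the main comparison. The groups were fitted with limma 3.58.1 (lmFit, eBayes) under R 4.3.3 and adjusted by Benjamini-Hochberg over all 17587 probes kept, at 0.05. The code was tested on simulated data. The p-values measure the spread between the rats as the labels give them, and the number of arrays limits the precision. The members, lists, tests and alternatives were chosen with earlier results of these data known. Named were every tubulin probe, from each list of other microtubule genes the 3 genes with the smallest unadjusted p (1 of them is not reported here), and for each tubulin the gene symbol that followed it most closely from rat to rat. Other probes of those genes and single markers were named after their values were seen. Further software was the R package data.table, version 1.17.8, Python 3.11.15, pandas 2.3.3, numpy 2.4.6 and matplotlib 3.10.9. Alternatives changed the scaling, background correction, source of values, filter, batch block, labeling, hybridizations, variance model, pairing and rats.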

Additional observations from a re-analysis of the deposited data

Results flagged for a closer look

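For Tubb2a, WT rat 1 stood apart from the other WT rats at 2.25, where the next rat was at 2.21. Its gap to that rat took up 0.847 of the group's whole range, above Dixon's critical value for 4 samples. The WT rats together spanned less than the ADBR3 overexpressing rats. Of 20 groups of tubulin values checked in this way 1 stood out, and chance gives about 1 in 20.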

How the results depend on the processing

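The number of probes past the adjusted threshold over the whole array, 1 (higher in ADBR3 overexpressing rats), depended on the processing. It was 2 with normexp and quantile normalization (1 higher, 1 lower), 0 with slide as a block, 6 with the replicate hybridizations added as arrays of their own (3 and 3) and 6 with a trended and robust variance model (1 and 5). With no filter on dim probes the 1 call was lower. With 1 rat left out at a time it ran from 0 to 14. It was 14 without ADBR3 overexpressing rat 3 (2 higher, 12 lower), 2 without ADBR3 overexpressing rat 5 or WT rat 1, and 0 without ADBR3 overexpressing rat 6 or 7 or WT rat 3, 4 or 6. Probes of the 6 lists of other microtubule genes past the threshold stayed at 0 in every setting run. Hearts numbered 1, 3 and 6 occur in both groups. Deviations of rats of the same number correlated at 0.115, 0.0352 and 0.116, and those of rats of different numbers at -0.123 to 0.0388. The values for numbers 1 and 6 were thus above every pair of different numbers. Whether the numbers pair the samples is not settled by these values, and the main fit did not pair them. On rats 1, 3 and 6 of both groups 0 probes passed with the heart number as a replicate block. With no replicate block 0 passed as well, and the Tubb2a difference was 0.24 with either. The sign of the difference held under all 24 settings for Tubb2a (0.16 to 0.27), Tuba1a, Tuba4a and both Tuba1b probes. For Tubb2a, leaving out a rat could not turn the sign, since its groups did not overlap. The sign turned in 1 for Tubb2b and 1 for Tubb5, both with slide as a block. It also turned in 5 for Tubb6, in 7 for Tuba8 and in 13 of 23 for Tubb3. The Tubb3 probe is dropped by the strictest filter on dim probes. The Tubb2a value with slide as a block, 0.16, was the 1 value that moved by more than the SD between rats, against 238 that did not. The causes were not tested. Slide 2 held ADBR3 overexpressing rats alone, as did slide 4 without the replicate hybridizations, and slide 5 held a WT rat alone, so the slide block rests on slides 1 and 3. Tubb3 is limited by its signal over background, and A_64_P144514 and Tuba8 by having 1 spot each.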
